A study of Mus musculus with 4 samples.

Results

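The genes described here are 10 components of the NF-kappa B system: the subunit genes Rela, Nfkb1, Rel, Relb and Nfkb2, the inhibitor genes Nfkbia and Nfkbie, the nuclear partner genes Nfkbiz and Bcl3, and Map3k14, which encodes the NF-kappa B inducing kinase NIK. They were chosen by name for their role in the pathway, with their FPKM in these libraries already known, so their levels and differences are a description and carry no test. All 10 are among the 22558 gene symbols in the deposited data. The table of the injured retina at day 1 holds 5799 symbols and only 3 of the 10, Rel, Nfkbia and Map3k14.

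RNA-seq was done on whole retinas of mice at roughly 8 weeks of age, of mixed C57BL/6 and 129 strain. Injured mice were Msi1-CreERT2/+; R26R-DTA/+, in which a ligand-dependent Cre driven from Msi1 switches on diphtheria toxin fragment A (DTA), an inhibitor of protein synthesis that kills the cell. Control mice were +/+; R26R-DTA/+, so they too carried the toxin allele, without Cre. Each genotype was taken at day 1 and day 5 after injury, which gives 4 groups of 1 library. The sources used here do not state the number of mice per library, the inducing treatment or the cells that the driver reaches. In whole retina, fewer cells of a type and less RNA per cell cannot be told apart.

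NF-kappa B proteins are dimers of Rel family subunits that bind kappa B sites in DNA. In the canonical route, inhibitors such as I kappa B alpha hold RelA dimers in the cytoplasm until the I kappa B kinases mark the inhibitors for destruction. In the non-canonical route, NIK and I kappa B kinase alpha trigger processing of the Nfkb2 precursor, which yields a subunit that pairs with RelB. Several genes of the system are themselves known NF-kappa B targets, among them Nfkbia, Nfkb2, Relb and Bcl3. In the injured retina, glia and microglia are known for NF-kappa B driven inflammatory gene expression.

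Because the data concern whether these genes move together, the sequences ahead of their transcription starts were searched for the NF-kappa B consensus site, by name the degenerate kappa B motif, on both strands in the 250 bases before each start. RefSeq promoter windows (build GRCm38.p6) were matched for 7 of the 10 genes, in 9 windows, and were not matched for Nfkb1, Relb and Nfkbiz. A match was found in 6 of the 9 windows and in 4 of the 7 genes. Of all genes with a promoter window 4.46% had a match, and among all 32851 windows 3.90%. Nfkb2 had matches in each of its 3 windows, and the window of the first start held 2 stretches. Nfkbia, Nfkbie and Rel had a match in their single window, while none was found in the windows of Bcl3, Map3k14 and Rela. A match is a description of letters and not a binding site.

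The windows printed here are those of the 4 genes with a match, the first start only for Nfkb2, and that of Bcl3, the gene with the largest day 5 difference and no match. Each reads 5′ to 3′ on the gene's strand and ends at the base before the start, and capitals mark the match. The windows lie at chr19:46304487-46304736 (plus strand, Nfkb2), chr12:55492648-55492897 (minus, Nfkbia), chr17:45555450-45555699 (plus, Nfkbie), chr11:23770970-23771219 (minus, Rel) and chr7:19822756-19823005 (minus, Bcl3).
Nfkb2: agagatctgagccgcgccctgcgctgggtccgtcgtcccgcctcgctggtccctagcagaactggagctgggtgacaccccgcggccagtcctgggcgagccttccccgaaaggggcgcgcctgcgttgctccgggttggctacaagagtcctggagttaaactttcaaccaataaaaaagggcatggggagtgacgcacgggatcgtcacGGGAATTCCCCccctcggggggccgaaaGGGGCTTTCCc
Nfkbia: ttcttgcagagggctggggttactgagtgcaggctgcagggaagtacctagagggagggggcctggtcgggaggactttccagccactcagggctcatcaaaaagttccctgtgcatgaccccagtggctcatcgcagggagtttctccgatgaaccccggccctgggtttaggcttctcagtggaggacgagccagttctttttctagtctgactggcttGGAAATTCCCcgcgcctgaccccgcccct
Nfkbie: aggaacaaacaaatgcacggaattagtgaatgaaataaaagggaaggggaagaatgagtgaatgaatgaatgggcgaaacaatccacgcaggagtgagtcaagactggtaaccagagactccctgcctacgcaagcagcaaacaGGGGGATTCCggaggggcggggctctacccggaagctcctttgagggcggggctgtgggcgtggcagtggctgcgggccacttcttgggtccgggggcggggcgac
Rel: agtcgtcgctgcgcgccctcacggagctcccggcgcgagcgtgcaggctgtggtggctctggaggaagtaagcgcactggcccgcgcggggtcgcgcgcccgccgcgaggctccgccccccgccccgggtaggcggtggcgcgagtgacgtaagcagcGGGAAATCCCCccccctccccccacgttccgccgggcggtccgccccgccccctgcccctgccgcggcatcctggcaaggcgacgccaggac
Bcl3: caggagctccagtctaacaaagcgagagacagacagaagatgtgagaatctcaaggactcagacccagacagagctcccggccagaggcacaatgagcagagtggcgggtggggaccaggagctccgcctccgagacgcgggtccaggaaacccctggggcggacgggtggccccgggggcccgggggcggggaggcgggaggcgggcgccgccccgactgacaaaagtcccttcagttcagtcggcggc

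The matched stretches in Nfkb2 begin 39 and 11 bases before the start, those of Nfkbia and Nfkbie 29 and 106 bases before it, and that of Rel 92 bases before it. The 11 bases in capitals in Nfkb2 and in Rel each hold overlapping matches on both strands.

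Levels are in FPKM, the fragments mapped per kilobase of transcript relative to the library's total, so levels of different genes can be set side by side. A difference is taken between log2(FPKM + 1) values, and a fold is a ratio of FPKM. No group has a replicate, so no p-value is given. A gene was called higher or lower by size alone: its difference had to reach 1, one of its compared FPKM had to reach 5, and a DTA difference also had to exceed the difference of that gene between both controls. Bounds are the authors' confidence bounds on FPKM, which speak for 1 library and not for the spread between mice.

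The smallest values give estimated depths of 74.2 M and 99.1 M (mega) fragments for control and DTA at day 1, and of 35.7 M and 28.9 M at day 5. The controls differed in tissue carried along and in sex-linked RNA: the summed FPKM of 8 lens markers was 1439 at day 1 and 222 at day 5, and Xist, the RNA of the inactive X chromosome, stood at 0.00596 and 53.7 FPKM. Rod markers were abundant in both controls, at a summed 13718 and 15695 FPKM over 11 genes.

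At day 5 every one of the 10 genes stood higher in DTA than in either control, and Bcl3, Relb and Nfkb2 differed most. That direction was the common one: 74.6% of genes reaching 5 FPKM, and 60.8% of all genes measured, were above the day 5 control. Bcl3, Relb and Nfkb2 went from under 1 FPKM to between 10.8 and 24.9 FPKM, while Rela, Nfkb1, Nfkbia and Nfkbiz, already present in the control, stood 2.31-fold to 2.55-fold higher. Called higher were 9 of the 10, Rel being the exception. Of the 9895 genes that reached 5 FPKM, 6.74% were called higher and 1.77% lower. The genes were chosen with this contrast known, so nothing is read from that comparison of shares. Only Rela and Nfkbia reached 5 FPKM in the day 5 control, so the other 7 called genes passed the floor through the DTA library.

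**Figure D1:**
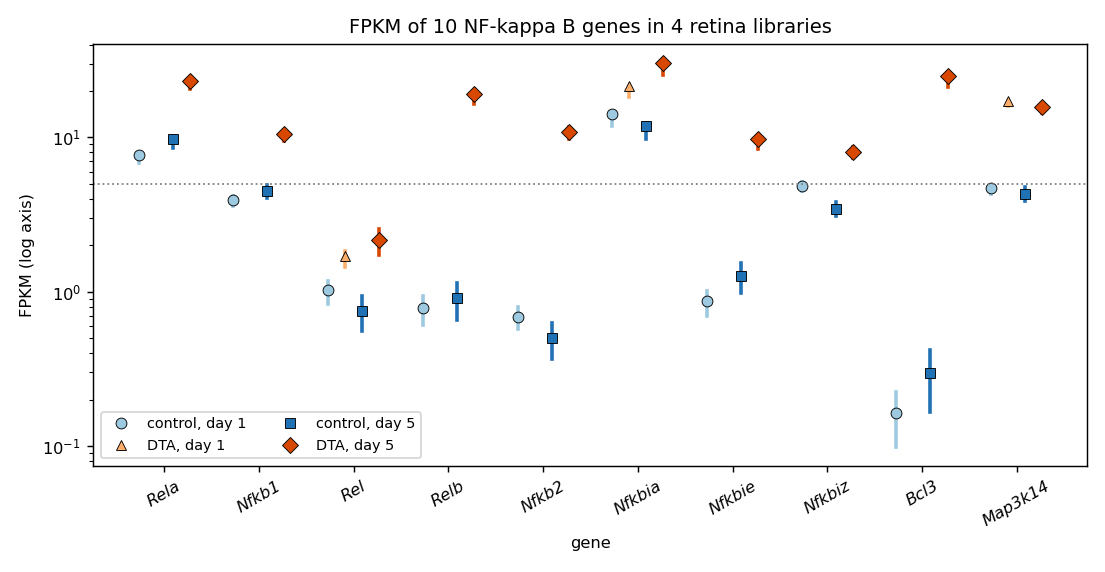
FPKM on a log axis for the 10 genes in the 4 libraries; vertical bars are the authors' confidence bounds within a library and the dotted line is the floor of 5 FPKM. Every day 5 DTA value lies above both control values, and the distance is greatest for Bcl3 (0.297 against 24.9 FPKM at day 5).

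Rela encodes RelA (p65), the main transactivating subunit of the canonical route, and lies on mm9 chromosome 19 from 5637490 to 5648130. Control FPKM was 7.69 at day 1 and 9.78 at day 5, against 23.1 in DTA at day 5, a day 5 difference of 1.16. Nfkb1, which encodes p105 and its product p50 (chromosome 3, 135247619 to 135354511), had FPKM of 3.95, 4.50 and 10.5 in the same order, a difference of 1.06. The DTA values lie above both controls for these canonical partners, at 2.36-fold the day 5 control for Rela and 2.33-fold for Nfkb1. Neither call is firm: after median ratio scaling the differences were 0.93 and 0.85, under the size rule.

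Rel encodes c-Rel, a subunit best known from lymphoid and myeloid cells (chromosome 11, 23641729 to 23670970). Control and DTA had 1.03 and 1.71 FPKM of it at day 1, and 0.750 and 2.16 at day 5. It was the least abundant of the 10 genes in day 5 DTA and never reached 5 FPKM, so it could not be called. The day 5 difference of 0.85 was the smallest of the 10, although the DTA value was 2.88-fold the control value. Bounds did not overlap at day 5, where they ran from 0.553 to 0.938 in control and from 1.73 to 2.55 in DTA.

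Relb encodes RelB, the transactivating subunit of the non-canonical route (chromosome 7, 20191571 to 20214787). Both controls were low, at 0.780 FPKM (day 1) and 0.907 FPKM (day 5), and DTA at day 5 reached 19.0 FPKM, 20.9-fold the control of that day (difference 3.39). Nfkb2, which encodes p100 and its product p52 (chromosome 19, 46379227 to 46386580), had 0.686, 0.499 and 10.8 FPKM in that order, a fold of 21.6 (difference 2.98). The folds of this non-canonical pair were alike, and larger than the 2.36 and 2.33 of the canonical pair. Nfkb2 has 3 annotated start sites, which the deposited table does not separate. Its locus shares 4 bases with that of Psd, whose day 5 FPKM of 71.7 in control and 51.6 in DTA differ the other way, by -0.47.

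The make-up of the subunit transcripts differed between libraries. Of the summed FPKM of the 5 subunit genes, Relb and Nfkb2 held 10.4% and 8.55% in the controls of day 1 and day 5, and 45.5% in DTA at day 5. The ratio of Nfkb2 to Nfkb1 was 0.174, 0.111 and 1.03 in these libraries, and the ratio of Relb to Rela 0.101, 0.0927 and 0.822. By contrast, the ratio of Rel to Rela in day 5 DTA, 0.0935, lay between the control values of 0.134 and 0.0767. These ratios are taken within a library, so scaling between libraries does not change them.

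**Figure D2:**
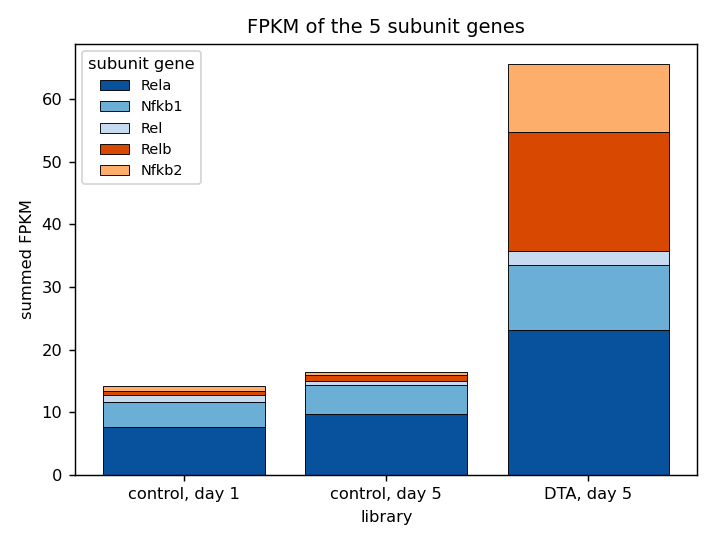
Summed FPKM of the 5 subunit genes in the libraries that hold them all, stacked by gene; 1 library per bar. The totals are 14.1 and 16.4 FPKM in the controls and 65.5 FPKM in day 5 DTA, where Relb and Nfkb2 made up 45.5%.

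Nfkbia encodes I kappa B alpha, the main cytoplasmic inhibitor and a classic feedback gene of the canonical route (chromosome 12, 56590396 to 56593634), and its window holds a motif match 29 bases before the start. Control and DTA had 14.3 and 21.6 FPKM at day 1, and 11.9 and 30.3 FPKM at day 5. It had the highest FPKM of the set in the controls and in day 5 DTA, and of the 3 genes measured in day 1 DTA; in the day 5 control its bounds overlap those of Rela. Both DTA values lie above both controls. The day 5 difference was 1.28, a 2.55-fold change, and stayed over 1 under every alternative setting tried (1.03 to 1.34). In 3 of its 4 libraries the authors' upper bound lies below the FPKM itself, so its bounds are read with care.

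Nfkbie encodes I kappa B epsilon, a second cytoplasmic inhibitor (chromosome 17, 45692665 to 45700117). Control FPKM was 0.872 (day 1) and 1.27 (day 5), and the day 5 DTA value of 9.76 was 7.71-fold the latter (difference 2.25). Relative to Nfkbia it stood at 0.0612 and 0.106 in the controls and at 0.322 in day 5 DTA, so this inhibitor differed more than Nfkbia did.

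Nfkbiz and Bcl3 encode I kappa B zeta and BCL3, ankyrin repeat proteins that act in the nucleus with p50 or p52 dimers rather than holding dimers in the cytoplasm. The FPKM of Nfkbiz (chromosome 16, 55811490 to 55838754) was 4.82 and 3.46 in the controls of day 1 and day 5, and 8.00 in DTA at day 5. Its day 5 difference of 1.01 only just passed the size rule and was 0.63 against the day 1 control and 0.81 after median ratio scaling. Bcl3 (chromosome 7, 20393811 to 20408104) had 0.164, 0.297 and 24.9 FPKM in the same order. With a day 5 difference of 4.32 and a fold of 83.7, Bcl3 lies at the other end of the set, ranked 52 from the top of the 9895 genes.

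The control level of Bcl3 is low, by the depth estimate about 22.5 and 19.6 fragments at day 1 and day 5, against about 1330 in DTA. From the nearest bounds the fold would be 50.7, so the size of the fold is uncertain and its direction does not depend on which bound is taken. In day 5 DTA the authors' upper bound for Bcl3, 24.6, lies below its FPKM of 24.9, so its bounds too are read with care. Bcl3 reached 0.821 of the FPKM of Nfkbia in day 5 DTA, from 0.0115 and 0.0250 in the controls.

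Map3k14 encodes NIK, the kinase whose protein accumulates when the non-canonical route is engaged (chromosome 11, 103081078 to 103128715). Control and DTA had 4.69 and 17.2 FPKM at day 1, and 4.33 and 15.8 FPKM at day 5. Both DTA values lie well above both controls, and they are close to each other. The day 5 difference was 1.65 (3.64-fold). NIK is regulated mostly through the stability of its protein, which these data do not measure.

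In level, the order of the genes changed between libraries. In the day 5 control Nfkbia and Rela led, Nfkb1, Map3k14 and Nfkbiz followed at 4.50, 4.33 and 3.46 FPKM, and Bcl3 came last. In day 5 DTA the order was Nfkbia, Bcl3, Rela, Relb, Map3k14, Nfkb2, Nfkb1, Nfkbie, Nfkbiz and Rel. Bounds of the neighbours Bcl3 and Rela overlapped there, as did those of Nfkb2 and Nfkb1, of Nfkb1 and Nfkbie and of Nfkbie and Nfkbiz. In the day 5 control bounds overlapped between Nfkbia and Rela, between Nfkb1 and Map3k14, and between each pair of neighbours from Nfkbie down through Relb, Rel and Nfkb2 to Bcl3.

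**Figure D3:**
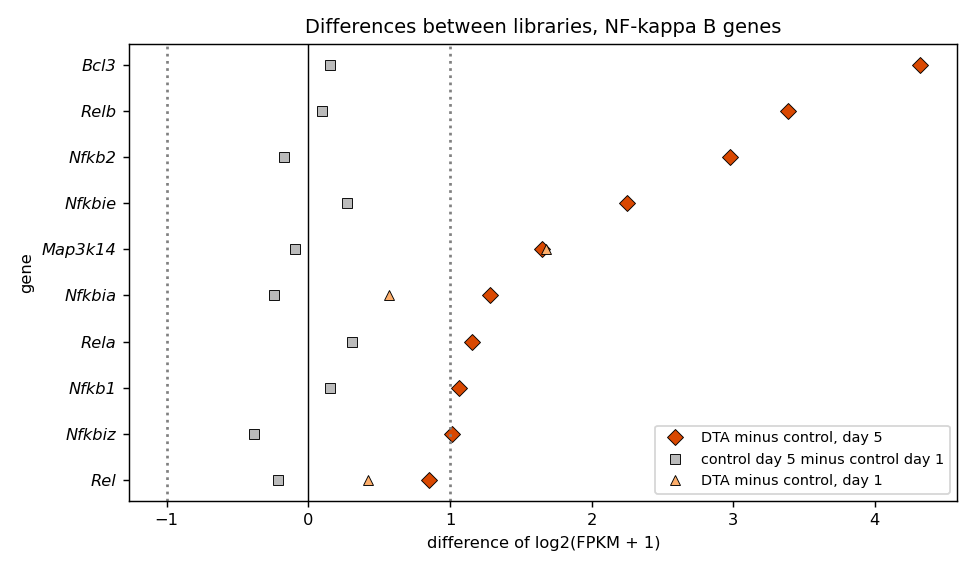
Difference of log2(FPKM + 1) for each gene, ordered by the day 5 difference: DTA minus control at day 5 (diamonds), at day 1 for the 3 genes in that table (triangles), and control day 5 minus control day 1 (squares); dotted lines mark differences of 1 and -1. The control differences lie between -0.39 and 0.31, and the day 5 differences between 0.85 and 4.32.

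The controls differed little in these genes. None of the 10 was called between them, with differences from -0.39 (Nfkbiz) to 0.31 (Rela), 5 above 0 and 5 below. For Rela, Nfkbia and Nfkbiz the authors' bounds of both controls still did not overlap, so a gap of bounds also occurs between controls. Over 9321 genes at 5 FPKM or more, 0.858% were called higher and 1.72% lower in the day 5 control. Only Rela and Nfkbia reached the floor in that comparison, so the size of the differences says more than the count. Against the day 1 control in place of the day 5 control, the day 5 DTA differences were 4.47 for Bcl3, 3.49 for Relb, 2.81 for Nfkb2, 2.52 for Nfkbie, 1.56 for Map3k14 and 1.04 for Nfkbia.

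FPKM is relative to the library total, of which rod transcripts, lower in day 5 DTA, are a large part. The median difference over the 9895 genes at day 5 was 0.26, and 0.03 after median ratio scaling. That scaling changed the calls over all genes from 667 higher and 175 lower to 424 and 255, and scaling on the FPKM total that leaves out rod markers and genes over 1000 FPKM gave 490 and 221. For the 10 NF-kappa B genes the median was 1.47, against 0.26 over the 9895 genes and 0.06 over all 22541 genes measured. The 10 were chosen with this contrast known, so nothing is read from these gaps. Under median ratio scaling all 10 differences stayed above 0 and 6 of the genes were called higher, Bcl3, Relb, Nfkb2, Nfkbie, Map3k14 and Nfkbia, where 4.32% of all genes tested were.

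At day 1 the kinase gene had the largest difference of the 3 measured genes. Map3k14 was called higher at a difference of 1.68 (3.67-fold). Nfkbia differed by 0.57 (1.52-fold) and Rel by 0.42 (1.66-fold), both without a call. Over 2623 genes at 5 FPKM or more at day 1, 2.06% were called higher and 0.61% lower. For all 3 genes the authors' bounds of DTA and control did not overlap. For Nfkbia those of both controls did not overlap either. Against the day 5 control the differences were 1.77 for Map3k14, 0.81 for Nfkbia and 0.63 for Rel.

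Between the days, the differences of these 3 genes moved by less than 1. Map3k14 had nearly the same difference at both days (day 5 minus day 1, -0.03), with 17.2 FPKM in day 1 DTA and 15.8 in day 5 DTA. For Nfkbia the difference was larger at day 5 by 0.71 and for Rel by 0.43. Each of these compares 4 single libraries. Bcl3, Relb, Nfkb2 and the other members are not analysed here at day 1.

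The I kappa B kinases and their adaptors, which act upstream, had a lower median difference at day 5 than the 10 genes (1.47). Those 10 were chosen with this contrast known, so nothing is read from that gap. Of 25 kinase and adaptor genes, 3 were called higher, none was called lower, and the median difference was 0.42. Over all 9895 genes tested 6.74% were called higher and the median was 0.26, so for the 21 of the 25 that reached the floor, and likewise for the 12 inhibitor and feedback genes that did, the counts are small ones and are given as a description. Chuk, Ikbkb and Ikbkg, which encode the 3 parts of the I kappa B kinase complex, differed by 0.28, 0.24 and 0.17. Called higher were Ripk1 (1.55), a kinase at the TNF receptor, Bcl10 (1.18), an adaptor of antigen and G protein receptor signalling, and Myd88 (1.07), the adaptor of Toll-like and interleukin 1 receptors. Traf2 (0.74), Traf3 (0.31) and Birc2 (0.29), parts of the complex that keeps NIK low, had no call. Birc3, another part of that complex that stands in the feedback list, was called higher (2.59).

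Other inhibitors and feedback genes numbered 18, with 2 called higher, no gene called lower and a median of 0.51. Birc3, an inhibitor of apoptosis protein and known target, had 0.430 and 7.63 FPKM in control and DTA (difference 2.59), and Tnip2, a partner of A20, differed by 1.14. Nfkbib, which encodes I kappa B beta, stood at 6.85 and 13.5 FPKM, a difference of 0.89 under the size rule. Tnfaip3, which encodes A20, the ubiquitin-editing feedback inhibitor, went the other way. Control and DTA had 77.9 and 78.1 FPKM at day 1, and 91.6 and 65.5 FPKM at day 5, a day 5 difference of -0.48. In each of the 4 libraries it was more abundant than any of the 10 NF-kappa B genes measured there.

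Receptors and ligands were mostly scarce. At day 5, 3 of 22 genes were called higher, none was called lower, and the median was 0.37. Of the 22, 18 stayed under 5 FPKM in both libraries, so the 3 come from only 4 that reached the floor. Over all 9895 genes tested 6.74% were called higher, and so small a count is a description. Called higher were Tnfrsf12a, the receptor of TWEAK (6.21 and 41.5 FPKM, difference 2.56), Tnfrsf1a, the type 1 TNF receptor (3.12 and 10.3 FPKM, 1.45), and Ltbr, the lymphotoxin beta receptor (2.42 and 8.26 FPKM, 1.44). Cd40 stood at 0.113 and 0.337 FPKM. TWEAK and lymphotoxin receptors are known to engage the non-canonical route.

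Known NF-kappa B target genes had the highest median of the pathway lists. At day 5, 16 of 30 targets were called higher, none was called lower, and the median was 1.87. Of the 30, 20 reached the floor, and 6.74% of all 9895 genes tested were called higher. Among the called targets only Junb (8.03 FPKM) reached 5 FPKM in the day 5 control. The others passed the floor only through the DTA library, so the count is a description. Icam1, a leukocyte adhesion molecule, differed by 6.27, and the chemokine genes Cxcl10 and Ccl2 by 5.19 and 4.91, each listed at 0 in the day 5 control. Cxcl1, a chemokine gene, differed by 3.98 and Vcam1, an adhesion molecule, by 1.88. Some textbook targets had no call: Sod2, the mitochondrial superoxide dismutase, differed by 0.50, Bcl2l1 by -0.02 and Cflar by 0.01. At day 1, 4 of 12 measured targets were called higher, Gadd45b (3.59), Irf1 (3.50), Ccl2 (3.22) and Ccl5 (2.51). Of the 12, 5 reached the floor, and 2.06% of all genes tested were called higher. These 4 called genes also passed the floor only through the DTA library, so this count too is a description. In the other 3 lists none of the 13 genes measured at day 1 was called, of which 8 reached the floor; at that share a count of 0 says nothing about these lists.

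**Figure D4:**
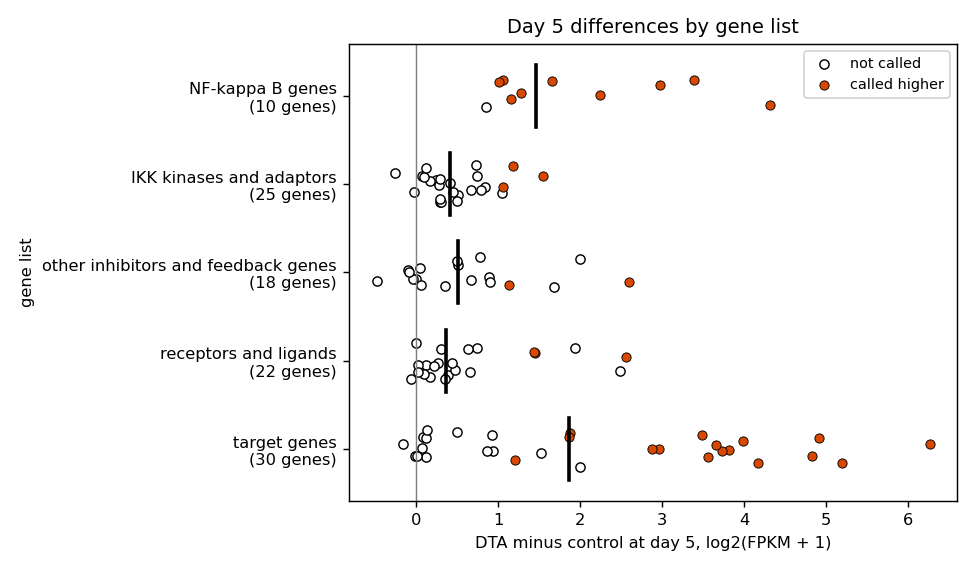
Day 5 difference (DTA minus control, log2(FPKM + 1)) of each gene in the NF-kappa B set and 4 pathway lists; filled points were called higher, open points were not called, and black bars are list medians. Medians run from 0.37 (receptors and ligands) to 1.87 (target genes), and no gene was called lower.

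Several of the 10 genes are known to be expressed in leukocytes and glia as well as neurons. Markers of these cells differed in both directions at day 5. Microglia, macrophage and reactive glia markers were mostly higher in DTA, and Müller glia and rod markers mostly lower. Of 20 microglia and macrophage markers 14 were called higher at day 5, none was listed at 0, and their summed FPKM was 46.3 and 43.4 in the controls and 239 in DTA. All 8 reactive glia markers measured in both day 5 libraries were called higher, with a sum of 79.7 in control and 601 in DTA; Lcn2 also stands in the target list. The 17 measured markers of other leukocytes all stayed under 5 FPKM in both day 5 libraries, so none could be called; their sum was 0.546 FPKM in control and 2.80 in DTA, of which Cd79a, a B cell receptor gene, had 0.0227 and 0.836, and the T cell genes Cd3e and Cd3g were listed at 0 in both day 5 libraries. Of 10 Müller glia markers 2 were called lower (sums of 1678 and 755 FPKM), and none of 8 endothelial markers was called (54.9 and 55.2 FPKM). Rod markers went the other way from the NF-kappa B genes, with 7 of 11 called lower and sums of 15695 and 4965 FPKM. Of 8 lens markers 3 were called lower (222 and 13.3 FPKM), and of 8 pigment epithelium markers 1 was (172 and 66.0 FPKM); both sums also differed between the controls, with pigment epithelium at 344 FPKM at day 1. The part of these cells in the NF-kappa B differences was not tested.

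At day 1 the pattern of markers differed from day 5. None of the 6 measured microglia and macrophage markers was called, and their sum was 15.9 FPKM in control and 14.2 in DTA, while Map3k14 was already 3.67-fold higher. Both measured reactive glia markers, Gfap and Serpina3n, were called higher, with a sum of 6.14 and 31.5 FPKM.

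Relb and Bcl3 lie 179 kilobases apart on chromosome 7, with 9 measured genes between them, a stretch described after its position was seen. None of the 9 was called at day 5, and the 5 at 5 FPKM or more differed by -0.06 to 0.57. Apoe, the apolipoprotein made by glia, lies there with day 5 FPKM of 316 in control and 303 in DTA. Apoc1, another apolipoprotein gene there and under the floor, differed by 1.19, less than Bcl3 (4.32) and Relb (3.39).

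Genes with patterns most like those of Bcl3, Nfkbia and Map3k14 were taken by the smallest distance between log2(FPKM + 1) values centred over libraries. For Bcl3, over 3 libraries and 8937 genes, these were Ccl5 (distance 0.25), the growth factor gene Fgf2 (0.30) and the metalloproteinase inhibitor gene Timp1 (0.30). For Map3k14, over 4 libraries and 2420 genes, they were the repressor gene Nfil3 (0.26), Arid5a (0.38) and the clock repressor gene Nr1d1 (0.38). Nfil3 had 6.83 and 25.4 FPKM in control and DTA at day 1, and 8.00 and 21.4 FPKM at day 5, so its DTA values too were high at both days. For Nfkbia the nearest were Rrs1 (0.04), Pgam2 (0.07) and Trp53 (0.09), the last with day 5 FPKM of 5.14 in control and 13.2 in DTA. With 3 or 4 points per gene such likeness is a description only.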

How the data were processed

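Total RNA from whole retinas was sequenced as mRNA-seq libraries, 1 per group, per the labels' protocols. The deposited values are FPKM per gene with confidence bounds and a status, per the file headers. Cufflinks 2.1.1, CASAVA 1.8.2, bcl2fastq 1.8.4 and build mm9 are listed, without roles, per the submitters' processing notes. For aligner and annotation, the sources used here state nothing.

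Lines of status FAIL or HIDATA were read as missing, and a symbol with several loci has their summed FPKM. Printed starts are 1-based. Depth is an estimate: the modal small product of FPKM and annotated length was taken as 1 fragment. Differences used a pseudocount of 1. No count test was run and no p-value is given. FPKM of the day 1 DTA table are used as deposited, although the table holds only part of the genes. The size rule was tested on simulated data made from 1 control library with small noise, with changes placed only in genes well above the floor. That simulation cannot speak for the spread between mice or for genes low in the control, such as Bcl3. Analysis used Python 3.11.15, pandas 2.3.3 and numpy 2.4.6.

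The 10 genes, the lists and the named genes were chosen with earlier results of these data known. Named were all 10 genes, up to 3 called genes per list, a few pathway genes fixed by name, and the 3 genes most alike in pattern. Alternatives varied pseudocount, floor, scaling, reference control, the requirement on the controls and the use of bounds.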

Additional observations from a re-analysis of the deposited data

How the results depend on the processing

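No paired analysis was possible because each group has 1 library. Under all 11 alternatives all 10 day 5 differences stayed above 0, where 74.6% of all genes tested were in the main setting. The calls of Bcl3 (2.50 to 5.97), Relb (2.02 to 4.24), Nfkb2 (1.52 to 4.19), Map3k14 (1.15 to 1.84) and Nfkbia remained. The number called ranged from 6 to 9. Nfkbiz lost its call in 7 alternatives, Nfkb1 in 4, Rela in 3 and Nfkbie in 1, the floor of 10 FPKM. With a pseudocount of 5, 350 of 9895 genes were called higher in place of 667. Map3k14 kept its day 1 call throughout (1.20 to 1.86). Depth limits Bcl3, Rel, Relb, Nfkb2 and Nfkbie in the controls, where the depth estimate gives about 19.6 to 213 fragments.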
